A study of Mus musculus with 9 samples.

Results

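The genes described here are 8 components of the signalling route that runs from the lipid kinase PI3K through the kinase AKT to the FOXO transcription factors: Pik3cd, Pik3r1, Pik3ap1, Inpp5d, Akt1, Akt2, Foxo1 and Foxo3. They were taken from the array annotation as the probe sets that carry 1 of these symbols and no other, and the brightest probe set stood for each gene. All 8 had such a probe set and all 8 passed the filter on dim genes, out of 22180 named genes, of which 12170 were tested.

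RNA of follicular B cells, the mature B cells that fill the follicles of the spleen, was measured on 9 arrays of mice aged 6 to 12 weeks. There were 3 arrays each of the genotypes Ighε/ε, Ighγ1/γ1 and Ighwt (wild-type), and every genotype label, wild-type included, also carries VJk5, a term that the labels leave unexplained. ε names the heavy chain of IgE and γ1 that of IgG1, and the series asks how heavy chain isotype and the dose of B cell receptor bear on B cell fate. The series calls its replicates independent. How the alleles were made, and whether a replicate is 1 animal or a pool, is not stated in the labels, so the spread that the p-values rest on is the one among these arrays and may be technical.

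PI3K is a pair of a catalytic and a regulatory subunit that turns a membrane lipid into phosphatidylinositol trisphosphate, the docking site of AKT. Docked and active, AKT phosphorylates FOXO proteins and so keeps them out of the nucleus, where they would switch on genes of cell cycle arrest, homing and death. In mouse B cells the route carries the tonic survival signal of the B cell receptor, and it acts mainly through phosphorylation, which transcript levels do not show.

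The promoters of the 3 genes whose ε/ε arrays all lay above their wild-type arrays are shown first. These genes were picked by that array pattern, and of them only Akt1 passed the test described below. The sequences are from RefSeq on GRCm38.p6, run 5′ to 3′ on the strand of the gene, and cover 250 bases before to 50 bases after an annotated start. Capitals mark the FOXO core motif TGTTTAC, searched on both strands with the AP-1 motif TGANTCA, which does not overlap it.
Akt1, the first of its annotated starts, chr12:112674835-112675134, minus strand: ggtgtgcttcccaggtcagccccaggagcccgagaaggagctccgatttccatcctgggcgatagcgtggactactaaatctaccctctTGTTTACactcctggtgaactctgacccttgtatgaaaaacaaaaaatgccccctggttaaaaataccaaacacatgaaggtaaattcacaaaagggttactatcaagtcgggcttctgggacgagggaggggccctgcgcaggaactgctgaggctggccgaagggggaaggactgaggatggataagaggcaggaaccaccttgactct
Akt1, the other annotated start, chr12:112674227-112674526, minus strand: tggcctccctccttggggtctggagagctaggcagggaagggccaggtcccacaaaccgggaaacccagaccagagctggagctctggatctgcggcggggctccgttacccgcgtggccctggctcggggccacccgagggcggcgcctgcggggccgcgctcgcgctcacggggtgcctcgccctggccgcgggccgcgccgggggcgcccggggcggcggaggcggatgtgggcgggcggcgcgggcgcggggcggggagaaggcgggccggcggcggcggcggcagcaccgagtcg
Akt2, the start farthest upstream, chr7:27591302-27591601, plus strand: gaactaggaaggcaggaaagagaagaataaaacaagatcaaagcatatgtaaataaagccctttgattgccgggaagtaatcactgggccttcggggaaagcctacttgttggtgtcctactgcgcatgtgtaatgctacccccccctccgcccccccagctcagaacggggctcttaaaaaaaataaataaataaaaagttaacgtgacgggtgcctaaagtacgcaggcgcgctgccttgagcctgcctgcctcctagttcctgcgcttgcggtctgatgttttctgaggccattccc
Inpp5d, chr1:87620062-87620361, plus strand: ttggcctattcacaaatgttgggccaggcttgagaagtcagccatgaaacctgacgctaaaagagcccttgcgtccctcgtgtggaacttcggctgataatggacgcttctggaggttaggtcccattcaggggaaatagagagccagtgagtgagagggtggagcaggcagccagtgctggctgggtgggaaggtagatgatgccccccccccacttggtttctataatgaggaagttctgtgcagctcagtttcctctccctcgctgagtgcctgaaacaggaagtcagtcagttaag
The FOXO core stood once in the first Akt1 window, beginning at position -161 from the start. It was in 1 of the 15 windows of the 8 genes, against 3.65% of the 32851 windows of all genes. Counted by gene, Akt1 alone of the 8 held it, against 4.05% of 27025 genes. The AP-1 motif was in 0 of the 15 windows, against 7.81% of all windows. A match is a stretch of letters and not a measured binding site, and the arrays do not tell which start was in use.

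The arrays held B cell RNA: all 7 B cell markers and all 7 follicular markers with a probe set lay above the array median on all 9 arrays. Levels here are log2 signals of a probe set, and the medians of the arrays lay between 3.53 and 3.69. The follicular markers averaged 7.19 to 7.68 on the ε/ε arrays, 7.69 to 8.12 on the γ1/γ1 arrays and 7.79 to 8.13 on the wild-type arrays, and 3 of the 7 fell in ε/ε cells against wild-type and 2 against γ1/γ1. Of the 7 differences of ε/ε from wild-type, 5 lay below 0 and 2 above. Those above were of Fcer2a (mean 9.76 in ε/ε against 9.22 in wild-type) and Cxcr5 (8.13 against 7.44). Of 9 T cell markers with a probe set, 5 lay below the median on all arrays and 1, Lat, above it on all arrays. The T cell markers averaged 3.36 to 3.54 on the ε/ε arrays, 3.23 to 3.38 on the γ1/γ1 arrays and 3.21 to 3.26 on the wild-type arrays, and Cd3e, a T cell receptor chain, read 2.40 to 3.16. In ε/ε replicate 1, 16 of 18 macrophage markers had their highest reading of the 9 arrays. The summed linear signal of these markers was 2485, 474 and 325 on the ε/ε arrays, 260 to 283 on the γ1/γ1 arrays and 247 to 266 on the wild-type arrays. Marginal zone markers belong to the other mature splenic B cell subset. They averaged 5.85 to 6.07 on the ε/ε arrays, 5.47 to 5.68 on the γ1/γ1 arrays and 5.04 to 5.22 on the wild-type arrays. Of their 10 differences tested between ε/ε and wild-type, 8 lay above 0 and 2 below, and 5 passed as higher. Those below were of Cd1d1 (mean 4.85 in ε/ε against 5.01 in wild-type) and Plac8 (7.44 against 7.75). Those above were uneven, with Il9r at 8.66 against 5.84 and Cd9 at 4.25 against 4.18. The γ1/γ1 mean of Il9r was 8.81. The marker lists were chosen with earlier results of these data known. The counts and averages of the follicular and marginal zone lists are therefore not independent of these results. Xist, the RNA of the inactive X chromosome, had a signal of 5.25 on the first ε/ε array and one of 4.53 on the first γ1/γ1 array, with 10.37 to 10.79 elsewhere, while the labels give no sex. What part these differences play in the results below was not tested.

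Akt1 rose in ε/ε cells relative to wild-type, and none of the other 7 genes passed the test. Limma with Benjamini-Hochberg adjustment over all 12170 genes called 1 of the 8, against 6.34% of all genes tested (2.33% higher and 4.02% lower). An unadjusted p under 0.05 was found for 2 of the 8 and for 24.8% of all genes, so that count is near the background. The calls over all genes were 283 higher and 489 lower, and under quantile normalization they were 410 higher and 299 lower. All 3 ε/ε arrays lay above all 3 wild-type arrays for Akt1, Akt2 and Inpp5d, and none of the 8 genes had all its ε/ε arrays lower. Over all genes tested, 28.4% had arrays without overlap, 11.8% higher in ε/ε and 16.6% lower. The median difference of the 8 genes was 0.30 on the log2 scale, beside -0.013 over all genes, and 7 of the 8 differences were above 0. Their median size without regard to sign was 0.30, against 0.24 over all genes. The members were picked with results of these data known, so neither count stands as support for a shift of the route as a whole. In RNA of a bulk sort, fewer cells of a type and less RNA per cell cannot be told apart, which holds for each difference given here.

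In γ1/γ1 cells set against wild-type, none of the 8 genes passed limma's test. The unadjusted p was under 0.05 for 0 of them, against 6.82% of all genes, and all 8 had overlapping arrays. Of all genes, 0.0411% passed in this comparison (0.0247% higher and 0.0164% lower), and 12.4% had arrays that did not overlap (4.68% higher and 7.71% lower). The median difference of the 8 genes was 0.039, with 5 above 0 and 3 below. Set against γ1/γ1 cells, ε/ε cells again showed no gene of the 8 past the threshold, against 2.66% of all genes (1.02% higher and 1.64% lower). The unadjusted p was under 0.05 for 2 of the 8 and for 19.9% of all genes. Akt1, Akt2 and Inpp5d had all ε/ε arrays above all γ1/γ1 arrays, a pattern found in 9.86% of all genes, with 11.3% lower without overlap and 21.1% in either direction. The calls over all genes were 124 higher and 200 lower, but 203 higher and 177 lower under quantile normalization and 151 higher and 126 lower with arrays centred on their medians. The ε/ε arrays enter both of their comparisons and the wild-type arrays both of theirs, so these counts are not independent of each other.

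**Figure D1:**
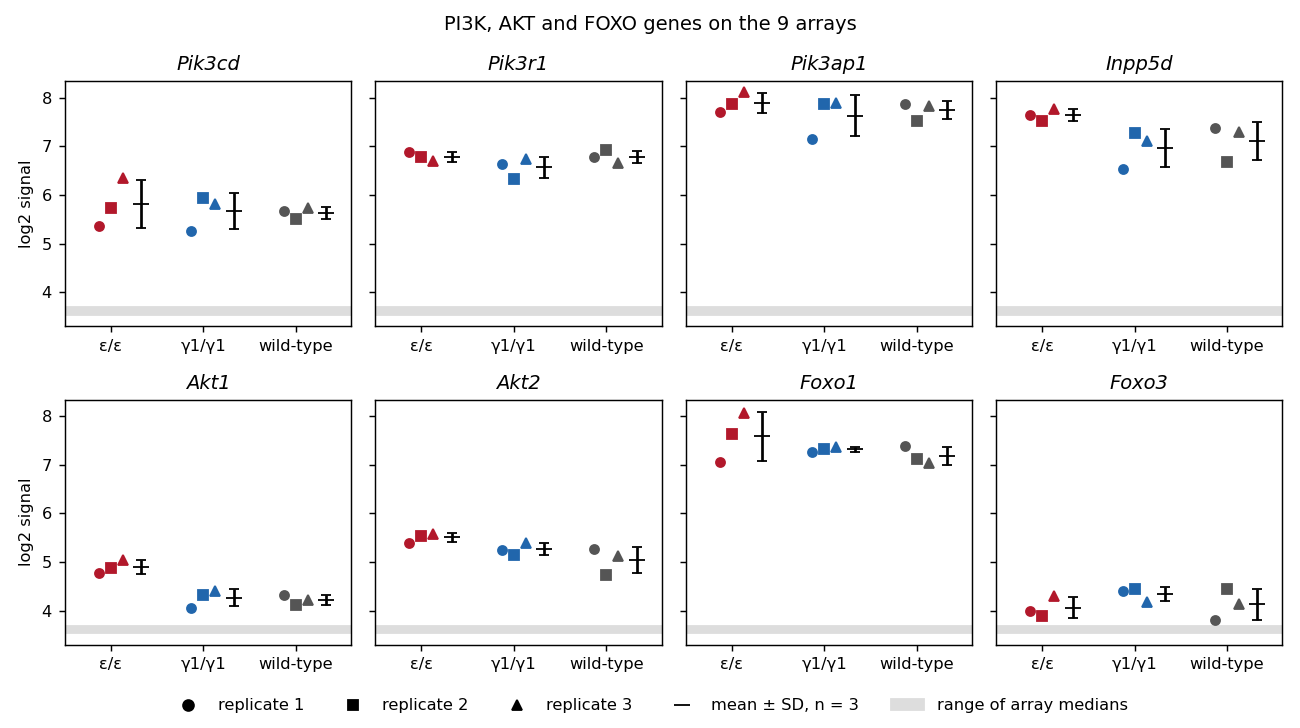
Log2 signal of the 8 genes (1 panel each) on the 3 ε/ε, 3 γ1/γ1 and 3 wild-type arrays; symbols mark the replicate, bars the mean ± SD (n = 3), and the grey band the range of array medians. The ε/ε arrays of Akt1 sit between 4.77 and 5.05, above every γ1/γ1 and wild-type array, while Pik3r1 and Foxo3 overlap in all 3 genotypes.

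Among the kinases, Akt1 and Akt2 encode closely related forms of AKT. Akt1 read 4.77, 4.88 and 5.05 on the ε/ε arrays, 4.06, 4.32 and 4.41 on the γ1/γ1 arrays and 4.33, 4.12 and 4.22 on the wild-type arrays. The lowest ε/ε array thus lay above the highest of the other 6, and the γ1/γ1 and wild-type arrays were intermingled. The mean was 4.90 ± 0.14 for ε/ε, 4.26 ± 0.18 for γ1/γ1 and 4.22 ± 0.10 for wild-type (SD, n = 3 each).

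Akt1 was higher in ε/ε than in wild-type cells by 0.68 on the log2 scale (SE 0.15, 95% interval 0.35 to 1.00), or 1.60-fold, with a limma adjusted p of 0.0263. By p it ranked 439th among the 12170 genes, so it was not among the strongest changes of the comparison. Set against γ1/γ1 cells, Akt1 in ε/ε cells was higher by 0.63 (SE 0.15, 95% interval 0.31 to 0.96), with an adjusted p of 0.0504 that missed the threshold. Between γ1/γ1 and wild-type cells the Akt1 difference was 0.041 (95% interval -0.29 to 0.37, adjusted p = 0.974). The Akt1 signal was not far above the array medians, and its lowest array stood at percentile 58.7 of the probe sets of that array. No background reading was used here, so the 1.60-fold is a ratio of signals that include any background.

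The Akt1 difference from wild-type rested on few arrays for its call, though not for its size. Without ε/ε replicate 3 the adjusted p was 0.0634, and without wild-type replicates 1, 2 and 3 it was 0.05004, 0.104 and 0.0888, while the difference stayed between 0.60 and 0.74 with any 1 array left out. Without ε/ε replicate 1, the array with the highest macrophage markers and low Xist, the difference was 0.74 (adjusted p = 0.0370). That replicate held the lowest Akt1 reading of the ε/ε arrays. In a fit to the 7 high-Xist arrays, which keep ε/ε replicate 2 with its Eif2s3y signal of 5.40, the adjusted p was 0.0338. Under the filter at percentile 75 Akt1 was too dim to be tested. In the RefSeq table the gene overlaps Mir6939 and the gene model Gm30150, and the files do not give the position or strand of the probes.

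**Figure D2:**
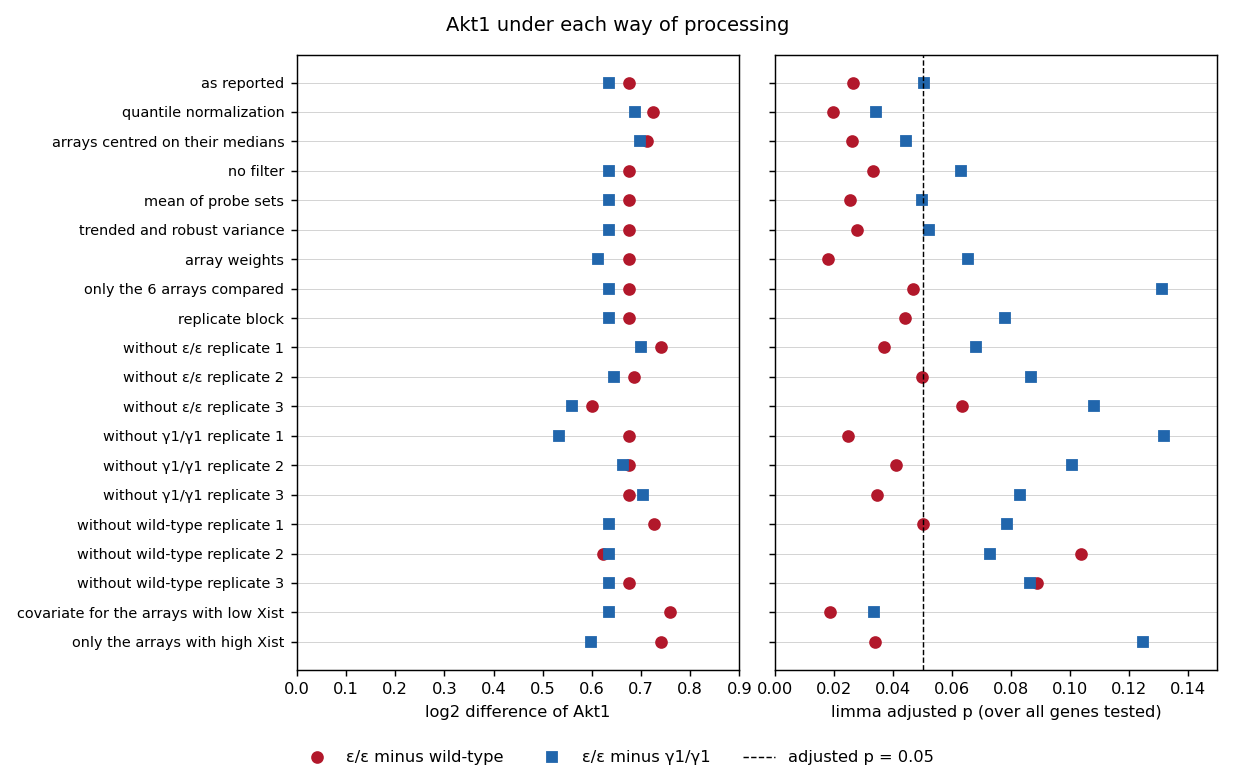
Log2 difference of Akt1 (left) and its limma adjusted p (right) as reported and under the 19 alternatives that tested it, for ε/ε minus wild-type (circles) and ε/ε minus γ1/γ1 (squares); the dashed line is an adjusted p of 0.05. The differences keep to 0.53 to 0.76, while the adjusted p runs from 0.0179 to 0.104 for the first comparison and from 0.0336 to 0.132 for the other.

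Akt2 read 5.40, 5.54 and 5.58 on the ε/ε arrays, 5.24, 5.15 and 5.39 on the γ1/γ1 arrays and 5.26, 4.73 and 5.11 on the wild-type arrays. The ε/ε arrays were again the 3 highest, but the gap to the nearest γ1/γ1 array was narrow, and wild-type replicate 2 was the lowest of the 9. Against wild-type the ε/ε difference was 0.47 (SE 0.16, 95% interval 0.11 to 0.83), with an adjusted p of 0.108, and without wild-type replicate 2 it was 0.32 (adjusted p = 0.313). Against γ1/γ1 the ε/ε difference was 0.25 (95% interval -0.11 to 0.60, adjusted p = 0.422), and the γ1/γ1 difference from wild-type was 0.23 (95% interval -0.13 to 0.58, adjusted p = 0.816). The order of the means was therefore ε/ε (5.51 ± 0.094), γ1/γ1 (5.26 ± 0.12) and wild-type (5.04 ± 0.27; SD, n = 3 each), and no neighbours in it differed by the test.

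Inpp5d encodes SHIP1, the phosphatase that removes a phosphate from phosphatidylinositol trisphosphate and so opposes PI3K. Inpp5d read 7.65, 7.51 and 7.76 on the ε/ε arrays, 6.52, 7.28 and 7.11 on the γ1/γ1 arrays and 7.39, 6.67 and 7.29 on the wild-type arrays. The ε/ε arrays lay close together above the rest, and γ1/γ1 replicate 1 and wild-type replicate 2 lay well below the other arrays of their genotypes. The difference from wild-type was 0.52 in ε/ε cells (SE 0.24, 95% interval -0.0028 to 1.05, adjusted p = 0.204). Without wild-type replicate 2 it was 0.30 (adjusted p = 0.522). The difference between ε/ε and γ1/γ1 was 0.67 (SE 0.24, 95% interval 0.14 to 1.20, adjusted p = 0.155), and 0.45 without γ1/γ1 replicate 1 (adjusted p = 0.351). SHIP1 is also made by macrophages, whose summed marker signal was higher on all 3 ε/ε arrays than on any wild-type array, and the part of such RNA in the Inpp5d difference was not tested. Without ε/ε replicate 1 alone the difference from wild-type was 0.52. Between γ1/γ1 and wild-type cells the Inpp5d difference was -0.15 (95% interval -0.67 to 0.38, adjusted p = 0.921).

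The PI3K subunits themselves did not differ by the test. Pik3cd encodes the delta catalytic subunit, the form that leukocytes rely on, and Pik3r1 the alpha regulatory subunit that stabilizes it and brings it to phosphorylated receptors. Pik3cd read 5.37 to 6.35 on the ε/ε arrays, 5.26 to 5.94 on the γ1/γ1 arrays and 5.50 to 5.72 on the wild-type arrays, and its ε/ε readings spanned those of wild-type on both sides. The Pik3cd difference of ε/ε from wild-type was 0.18 (95% interval -0.39 to 0.75, adjusted p = 0.699), and it turned to -0.083 without ε/ε replicate 3. The difference of γ1/γ1 from wild-type was 0.038 (95% interval -0.53 to 0.61, adjusted p = 0.987).

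Pik3r1 read 6.69 to 6.89 on the ε/ε arrays, 6.33 to 6.74 on the γ1/γ1 arrays and 6.67 to 6.92 on the wild-type arrays. Its means in ε/ε and wild-type cells were nearly equal, 6.79 ± 0.10 and 6.79 ± 0.13 (SD, n = 3 each), a difference of 0.0011 with a 95% interval of -0.33 to 0.34 (adjusted p = 0.998). The Pik3r1 difference of γ1/γ1 from wild-type was -0.21 (95% interval -0.55 to 0.12, adjusted p = 0.812).

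Pik3ap1 encodes BCAP, an adaptor that recruits PI3K to the B cell receptor once it is phosphorylated. It read 7.70 to 8.12 on the ε/ε arrays, 7.15 to 7.89 on the γ1/γ1 arrays and 7.53 to 7.88 on the wild-type arrays. The difference of ε/ε from wild-type was 0.15 (95% interval -0.33 to 0.63, adjusted p = 0.712), and that of γ1/γ1 from wild-type was -0.11 (95% interval -0.59 to 0.37, adjusted p = 0.939). γ1/γ1 replicate 1, an array with low Xist, was the lowest of the 9 arrays for Pik3ap1, as it was for Inpp5d, Pik3cd and Akt1. Without it the γ1/γ1 difference of Pik3ap1 from wild-type was 0.13 and that of Inpp5d 0.077. The Akt1 difference between ε/ε and γ1/γ1 ran from 0.53 to 0.70 with any 1 array left out.

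Foxo1 and Foxo3 are the transcription factors that AKT restrains, and in B cells Foxo1 is needed for expression of the recombinase genes. Foxo1 read 7.07, 7.63 and 8.08 on the ε/ε arrays, 7.27, 7.33 and 7.38 on the γ1/γ1 arrays and 7.39, 7.12 and 7.03 on the wild-type arrays. The ε/ε arrays were spread about 1 log2 unit apart, from below 5 of the other 6 arrays to above all of them, whereas the γ1/γ1 arrays nearly coincided. The difference of ε/ε from wild-type was 0.41 (SE 0.23, 95% interval -0.10 to 0.92, adjusted p = 0.299). It was 0.67 without ε/ε replicate 1 (adjusted p = 0.0720) and 0.17 without ε/ε replicate 3 (adjusted p = 0.657). The difference of γ1/γ1 from wild-type was 0.14 (95% interval -0.37 to 0.65, adjusted p = 0.922). A second Foxo1 probe set, 17405165, was dimmer and gave 0.41 for ε/ε minus wild-type (adjusted p = 0.408 over all probe sets tested). It held the same reading of 5.42 on all 3 γ1/γ1 arrays and on wild-type replicate 1, and 25.9% of all 41345 probe sets likewise held 1 value on 3 or more arrays.

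Foxo3 read 3.89 to 4.30 on the ε/ε arrays, 4.17 to 4.44 on the γ1/γ1 arrays and 3.80 to 4.44 on the wild-type arrays, close to the array medians. It was the only one of the 8 genes whose difference of ε/ε from wild-type lay below 0, at -0.065 (95% interval -0.48 to 0.35, adjusted p = 0.871). Its difference between ε/ε and γ1/γ1 was -0.28 (95% interval -0.70 to 0.14, adjusted p = 0.438).

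**Figure D3:**
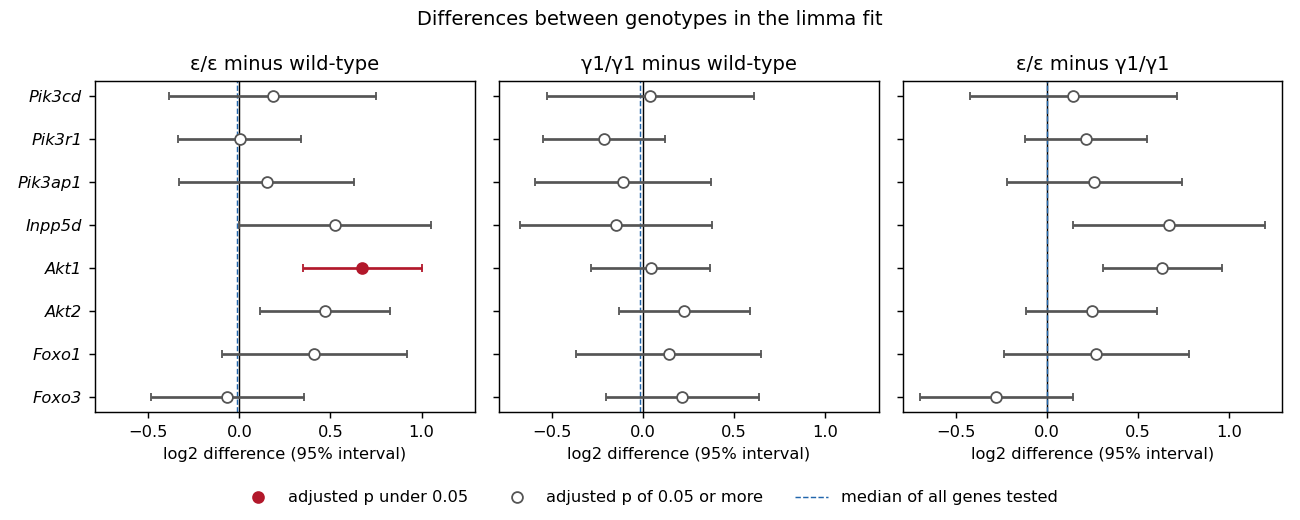
Log2 difference of each of the 8 genes with its 95% interval from the limma fit, for ε/ε minus wild-type (left), γ1/γ1 minus wild-type (middle) and, at the right, ε/ε minus γ1/γ1; the filled point passed at an adjusted p under 0.05, and the dashed line is the median of all genes tested. Akt1 in ε/ε cells, at 0.68, is the only filled point, and every interval of γ1/γ1 minus wild-type spans 0.

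Within a genotype, 1 array often gave the extreme reading for several of the 8 genes. ε/ε replicate 3 gave the highest of the 3 ε/ε readings for 7 of the 8 genes, all but Pik3r1, and it did so for 36.9% of all genes tested. γ1/γ1 replicate 1 gave the lowest γ1/γ1 reading for 5 of them and wild-type replicate 2 the lowest wild-type reading for 5, against 45.1% and 41.4% of all genes, with no test of these counts. Wild-type replicate 2 was also the wild-type array with the lowest average of the B cell markers, at 8.58 against 8.96 and 9.10. Over the 9 arrays Inpp5d and Akt1 had a Pearson r of 0.85, Pik3cd and Pik3ap1 also 0.85, and Akt1 and Foxo3 -0.39, while Pik3r1 had an r of -0.41 to 0.17 and Foxo3 one of -0.56 to 0.072 with the other genes. These values describe 9 arrays that share genotypes and carry no test.

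The genes tested whose pattern was most like that of Akt1 were Sik1 (Pearson r = 0.97 over the 9 arrays), B930025P03Rik (0.96) and Noc4l (0.96). Sik1, a kinase of the AMPK family, had a mean signal of 7.04 on the ε/ε arrays, 5.09 on the γ1/γ1 arrays and 5.25 on the wild-type arrays, so it was, like Akt1, high on the ε/ε arrays. An r of at least 0.9 with Akt1 was found for 108 of the 12169 other genes.

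Of 111 other genes of the pathway in 7 lists, 98 had a probe set of their own and 86 were tested. Between ε/ε and wild-type cells 4 rose and 0 fell, or 4.65% of them, below the 6.34% of all genes. In this comparison 30 of the 86 (34.9%) had an unadjusted p under 0.05, against 24.8% of all genes. The median difference of the 86 was -0.024. No gene of the lists passed when either wild-type replicate 2 or 3 was left out, 2 passed without ε/ε replicate 1, 1 passed with only the 6 arrays compared, and under quantile normalization 8 passed, all higher. Over all genes the calls were 186 without wild-type replicate 2 and 210 without replicate 3, against 772 with all arrays. Between γ1/γ1 and wild-type cells 0 of the 86 passed in limma, with 5 (5.81%) at an unadjusted p under 0.05 against 6.82% of all genes. Between ε/ε and γ1/γ1 cells 1 rose and 0 fell, with 20 (23.3%) at an unadjusted p under 0.05 against 19.9% of all genes. Some list members are markers of B cell subsets as well: Cr2 stands among the marginal zone markers, and Ccr7 and Klf2 are among the follicular ones.

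At the entry of the route, 2 of 14 genes listed for PI3K recruitment at the B cell receptor rose in ε/ε cells against wild-type. The list median was 0.12. This list is broader than recruitment itself and takes in, for example, Btk and Plcg2. Blnk, a scaffold of the receptor signalling complex, read 8.93 to 9.32 on the ε/ε arrays and 8.18 to 8.51 on the wild-type arrays, a difference of 0.79 (adjusted p = 0.0156). Syk, a kinase that docks on the phosphorylated receptor, read 7.99 to 8.03 on the ε/ε arrays and 6.94 to 7.66 on the wild-type arrays, a difference of 0.73 (adjusted p = 0.0377). For both genes the ε/ε arrays lay above all wild-type arrays. Without wild-type replicate 2 or 3 neither passed (adjusted p 0.0613 to 0.128), and Syk missed the threshold in 12 of 20 alternatives, among them each ε/ε array left out (0.0693 to 0.0815), the 6 arrays compared alone (0.0905) and the replicate number as a block (0.0506). Vav1, a guanine nucleotide exchange factor that lies downstream of Syk, rose in ε/ε against γ1/γ1 by 0.87 (adjusted p = 0.0480), with 6.44 to 6.93 on the ε/ε arrays and 5.66 to 6.16 on the γ1/γ1 arrays. Vav1 missed the threshold in 13 of 20 alternatives, with an adjusted p of up to 0.212. Cr2, a complement receptor of B cells, had the smallest p of the list between γ1/γ1 and wild-type cells, with a difference of 0.41 and an adjusted p of 0.524.

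Of the other class I PI3K subunits 0 of 6 passed in limma in any comparison, with 3 at an unadjusted p under 0.05 between ε/ε and wild-type, and the list median there was -0.16. Pik3r2, the beta regulatory subunit, read 4.97 to 5.19 on the ε/ε arrays and 3.97 to 4.58 on the wild-type arrays, a difference of 0.72 that just missed the threshold (adjusted p = 0.0517). Pik3ca, the alpha catalytic subunit, differed the other way by -0.36 (adjusted p = 0.119). Against γ1/γ1 these differences of ε/ε were 0.65 and -0.31 (adjusted p = 0.0996 and 0.208).

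Of 10 phosphoinositide phosphatases and SHIP1 partners tested, 1 rose between ε/ε and wild-type cells, with a list median of 0.095. It was Inpp4a, which acts on the lipid that SHIP1 produces, with 4.90, 4.38 and 4.41 on the ε/ε arrays and 3.97, 3.36 and 3.60 on the wild-type arrays. The difference was 0.92 (adjusted p = 0.0286), from a wild-type level at the array median. It was 0.75 without ε/ε replicate 1 (adjusted p = 0.0720), the array with the highest macrophage markers and the highest Inpp4a reading, and it missed the threshold as well without wild-type replicate 2 or 3 (0.117 and 0.0990).

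Of 12 genes listed for AKT activation and removal, 0 passed in limma between ε/ε and wild-type, with 3 at an unadjusted p under 0.05. The list median of -0.19 takes in Plekha1, Plekha2 and Dapp1, adaptors that neither activate AKT nor remove its phosphate. These adaptors differed by -0.36, -0.39 and -0.24. Pdpk1, the kinase that phosphorylates AKT at the membrane, had a difference of -0.58 (adjusted p = 0.0908), and Mapkap1, a subunit of the mTORC2 complex that also phosphorylates AKT, had one of -0.45 (adjusted p = 0.0698). Both had all ε/ε arrays below all wild-type arrays, opposite in direction to Akt1. Of 11 genes of the mTORC1 and GSK3 arm 0 passed, with 4 at an unadjusted p under 0.05 and a list median of 0.061. Eif4ebp1, a brake on translation that mTORC1 releases, and Tsc2, an inhibitor of mTORC1 that AKT phosphorylates, differed by 0.73 and 0.62 (adjusted p = 0.0741 and 0.0843).

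Of 12 further FOXO genes and regulators 0 passed in limma between ε/ε and wild-type, with 5 at an unadjusted p under 0.05 and a list median of -0.10. Xpo1, which carries FOXO and other proteins out of the nucleus, and Ywhaz, a 14-3-3 protein of the family that holds phosphorylated FOXO in the cytoplasm, differed by -0.59 and -0.54 (adjusted p = 0.0947 and 0.0975). Over the 20 alternatives the Ywhaz difference ran from -0.63 to -0.15 (limma adjusted p up to 0.489) and that of Xpo1 from -0.72 to -0.36.

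Of 21 FOXO target genes tested, 1 rose and 0 fell in limma between ε/ε and wild-type, with 7 at an unadjusted p under 0.05. The list median was -0.13, with 8 differences above 0 and 13 below. Among the 7, Sesn1 (-0.57), Ccng2 (-0.47) and Bcl2l11 (-0.47) lay below 0, and Gadd45b (0.94), Sesn3 (0.50) and Btg1 (0.45) above it. None of these genes passed. The gene that passed was Irs2, an adaptor of insulin receptor signalling to PI3K. Irs2 read 7.49, 5.73 and 5.87 on the ε/ε arrays, 5.51, 4.61 and 4.05 on the γ1/γ1 arrays and 4.53, 3.82 and 3.90 on the wild-type arrays. Replicate 1 was the highest array in each genotype, and ε/ε replicate 1 stood well above the other ε/ε arrays. The difference of ε/ε from wild-type was 2.28 (SE 0.48, 4.86-fold, adjusted p = 0.0235), and 1.72 without ε/ε replicate 1 (adjusted p = 0.0422). Without wild-type replicate 2 or 3 the adjusted p was 0.102 and 0.0895. Against γ1/γ1 the Irs2 difference of ε/ε was 1.64 (adjusted p = 0.0999). Among the targets between γ1/γ1 and wild-type cells, Ccng2, a cyclin of cell cycle arrest, had the smallest p, with -0.48 and an adjusted p of 0.679.

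Between γ1/γ1 and wild-type cells the other listed genes with the smallest p had these differences, none of which passed. Among signalling components Pik3cg, the gamma catalytic subunit, differed by -0.32 (adjusted p = 0.800), Pik3ip1, an inhibitor of PI3K, by -0.18 (0.851) and Syk by 0.37 (0.727). The adaptors Dok3 and Shc1 differed by 0.56 (0.739) and 0.30 (0.727), Mapkap1 by -0.37 (0.660) and Phlpp1, a phosphatase of AKT, by 0.26 (0.817). Farther along the route, Eif4ebp1 and its relative Eif4ebp2 differed by 0.20 (0.881) and 0.67 (0.801), Foxo6 by 0.29 (0.760), Sgk1, a kinase related to AKT, by -0.15 (0.877) and Gadd45b, a stress response gene, by 0.67 (0.716).

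Between ε/ε and γ1/γ1 cells the other listed genes with the smallest p likewise did not pass. Inpp4a differed by 0.58 (adjusted p = 0.154), Inpp5f, a further phosphoinositide phosphatase, by -0.52 (0.108), Pdpk1 by -0.47 (0.209) and Mtor, the kinase of both mTOR complexes, by 0.34 (0.278). Tsc2 and Eif4ebp1 differed by 0.52 (0.179) and 0.53 (0.216), Sgk3, another kinase related to AKT, by -0.58 (0.0979), Xpo1 by -0.56 (0.144) and Btg1, a gene that restrains proliferation, by 0.45 (0.0886).

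**Figure D4:**
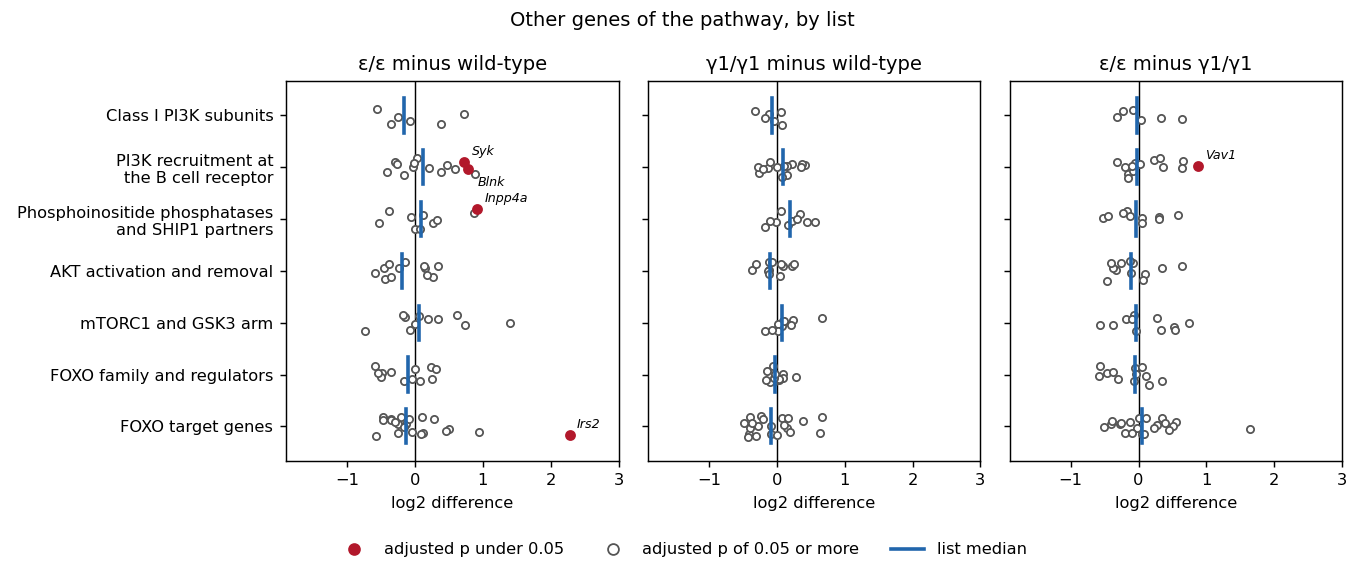
Log2 difference of the 86 other pathway genes tested, in 7 lists, for ε/ε minus wild-type (left), γ1/γ1 minus wild-type (middle) and, at the right, ε/ε minus γ1/γ1; each point is a gene, filled where its adjusted p was under 0.05, and the vertical bar is the list median. Irs2 at 2.28 lies farthest out, Syk, Blnk and Inpp4a are the other filled points of the first panel and Vav1 that of the last, and the list medians lie between -0.19 and 0.19.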

How the data were processed

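RNA of sorted splenic follicular B cells was measured on 9 single-colour arrays. Per the labels' protocols it was extracted with Trizol, and 54 to 360 ng were amplified and biotin-labelled with Nugen kits. The deposited table holds log2 signals per probe set as the authors processed them, with R 3.3.1 per the submitters' processing notes; how background, normalization and probe summary were handled is not given in the sources used here. Signals had the range of a log2 scale.

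Of 41345 probe sets, the platform annotation named 23521 with 1 symbol, 1814 with several and 16010 with none. A gene was tested if its brightest probe set exceeded the array median on at least 3 of 9 arrays. All 9 arrays entered 1 limma 3.58.1 model (R 4.3.3) with 1 mean per genotype, 6 residual degrees of freedom and eBayes; p-values were adjusted by Benjamini-Hochberg over the 12170 genes and passed under 0.05. The code was tested on simulated data. Depth does not apply; the number of arrays limits the precision. The 8 genes, the lists and the alternatives were chosen with earlier results of these data known. Besides the 8 genes, up to 4 genes that passed are named per list and comparison, or else the 2 with the smallest p, and the 3 genes most correlated with Akt1. Alternatives changed normalization, filter, probe set choice, variance, array weights, arrays fitted, the replicate block and Xist. Figures used matplotlib 3.10.9 (Python 3.11.15).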

Additional observations from a re-analysis of the deposited data

How the results depend on the processing

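Of the 474 values of the 8 genes under 20 alternatives, 4 lost a call, 4 gained one and 20 changed sign. All 4 lost calls and all 4 gained ones were of Akt1, and every change of sign was in a difference that had not passed. Genes called between ε/ε and wild-type numbered 772, 186 to 789 with each array left out, and 424 with only the 6 arrays compared. Of the 8 genes, 1 was called there, 0 to 1 with arrays left out, and 0 under the filter at percentile 75, which does not test Akt1. Between γ1/γ1 and wild-type 5 genes were called, 0 to 6 with arrays left out, 0 with only the 6 arrays compared and 3 in a fit to the high-Xist arrays alone. Between ε/ε and γ1/γ1 324 were called, 122 to 330 with arrays left out, 56 with only the 6 arrays compared, 513 with a covariate for low Xist and 88 in the fit to high-Xist arrays alone. Of the 8 genes, 1, Akt1, was called between ε/ε and γ1/γ1 under quantile normalization, centring on medians, the mean of probe sets and the covariate for low Xist, in place of 0.

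With arrays left out, signs changed for ε/ε minus wild-type in Pik3cd (-0.083 to 0.41), Pik3r1 (-0.058 to 0.067) and Foxo3 (-0.23 to 0.092), for γ1/γ1 minus wild-type in Pik3cd (-0.098 to 0.24), Pik3ap1 (-0.24 to 0.13), Inpp5d (-0.37 to 0.077) and Akt1 (-0.030 to 0.14), and for ε/ε minus γ1/γ1 in Pik3cd (-0.12 to 0.37). With the covariate for low Xist, Pik3r1 in ε/ε was -0.044 and Pik3ap1 in γ1/γ1 0.060. In the fit to high-Xist arrays alone, Pik3r1 in ε/ε was -0.053, and Pik3ap1 and Inpp5d in γ1/γ1 were 0.13 and 0.077. Among the named genes of the lists, 35 of 774 values lost a call, 4 gained one and 0 changed sign. The cause of these changes was not tested.

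With the replicate number as a block, 668 genes were called between ε/ε and wild-type, 0 between γ1/γ1 and wild-type and 237 between ε/ε and γ1/γ1, and the Akt1 difference from wild-type had an adjusted p of 0.0440. Same-numbered arrays of different genotypes had correlations of -0.091 to 0.16 in their deviations from the genotype means. For arrays of different genotypes and different numbers the range was -0.073 to 0.084. Pairing by number was not evident in these values, but so few arrays per genotype cannot exclude it. Of the named list genes, the block ended the calls of Syk against wild-type (adjusted p = 0.0506) and Vav1 against γ1/γ1 (0.0780) and brought Irs2 against γ1/γ1 past the threshold (0.0217). No background reading was used here, so how far the signals of Foxo3 and Akt1, which lie near the array medians, stood above background is not known.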
